A study of Mus musculus with 6 samples.

Results

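Interferon gamma was followed beside 9 other cytokine genes of effector T cells in CD8 T cells sorted from the mouse pancreas. The 10 genes are Ifng, Tnf, Il2, Il10, Il21, Csf2, Lta, Ltb, Tgfb1 and Il16, out of 19929 genes that the arrays name. Each had 1 probe with a single gene symbol, so no choice between probes was needed. The cells came from Rip-B7xAI4 mice (3 arrays), which were resistant to type 1 diabetes, and were set against cells from AI4 mice (3 arrays), which developed it. All mice shared a C57BL/6.H2g7/g7 background and the transgenic AI4 receptor, through which CD8 T cells see beta cells. Rip-B7xAI4 mice also carried B7x, a ligand that inhibits T cells, driven in beta cells by the rat insulin promoter. Each array held RNA from pooled pancreata, labelled as a biological replicate, of cells sorted with anti-CD8 and a tetramer of MimA2 on H-2Db. How many mice went into a pool, and at what age, is not given in the sources. B7x and resistance to diabetes went together, so their effects cannot be told apart. In such bulk samples, fewer cells of a type and less RNA per cell cannot be told apart either.

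CD8 T cells act on target cells by releasing cytotoxic granules and by secreting cytokines, of which interferon gamma is the hallmark. Interferon gamma binds a receptor made of Ifngr1 and Ifngr2 chains and raises antigen presentation in the cells it reaches, and in islets it is known to act on beta cells together with tumour necrosis factor. Interleukin 2 is a growth factor of T cells, whereas interleukin 10 and transforming growth factor beta are known for restraining immune responses. T cells store little of most cytokines and make many of them anew after the antigen receptor has signalled. Whether the transcripts read here mark recent stimulation was not tested.

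Values are log2 expression as the authors deposited it, where a step of 1 is a doubling of the signal, and differences are Rip-B7xAI4 minus AI4. Array medians were 5.94, 6.01 and 6.08 in Rip-B7xAI4, against 6.10, 6.08 and 6.05 in AI4. Precision is limited by having 3 arrays per group. All 8 T cell markers read here, among them Cd3e, Cd3g, Cd8a and Cd8b1, lay above the array median on all 6 arrays. They did not all stand at the same level in both groups: Cd8b1 was at 9.53, 10.73 and 10.05 in Rip-B7xAI4, against 10.48, 11.34 and 11.49 in AI4, a difference of -1.001 ± 0.39 (SE, adjusted p = 0.559 in limma). Cd8a differed by -0.69 ± 0.35 with overlap and Cd3e by 0.88 ± 0.42 without overlap. Of the 8 markers, 1 was lower and 0 were higher at an unadjusted p under 0.05, against 3.17% and 5.56% of all tested genes. The part of these shifts in the results was not tested. Myeloid markers differed between the arrays: the mean of 19 myeloid markers was 8.17, 5.96 and 8.01 on Rip-B7xAI4 arrays 1, 2 and 3, against 6.32, 5.78 and 6.10 on AI4 arrays. Of these 19 markers, 17, 6 and 18 lay above the array median in Rip-B7xAI4, against 11, 7 and 6 in AI4, and log2 values have no true 0. Rip-B7xAI4 replicates 1 and 3 thus stood apart, and differences said to go with the myeloid markers are given with and without them. Genes were tested with limma across the 13950 genes that remained after the 30% with the lowest mean were left out, and p was adjusted over all of them.

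Ifng was higher in Rip-B7xAI4 cells and separated the groups more widely than any other member. Its log2 expression was 9.47, 9.73 and 8.49 on the Rip-B7xAI4 arrays, against 6.76, 5.38 and 5.14 on the AI4 arrays. Every Rip-B7xAI4 array lay above every AI4 array, with a gap of 1.74 between the lowest of the first and the highest of the second. The means were 9.23 ± 0.65 in Rip-B7xAI4 and 5.76 ± 0.87 in AI4 (SD, n = 3 each), a difference of 3.47 ± 0.51 (SE) with a 95% interval of 2.27 to 4.68. In AI4 replicates 2 and 3 the gene was dimmer than the array median, and no background measure was used, so the change is not given as a fold. Ifng ranked 6 by size of increase and 25 by p among the tested genes, and it did not pass the adjusted limit of 0.05 (limma, adjusted p = 0.157). That limit was passed by 1 gene, the chemokine gene Ccl3, which makes 0.00717% of tested genes higher, and by 0 genes lower. With no filter the share was 0.00502%. The adjusted p of Ifng was 0.0393 with array weights, the only setting of those run in which it passed. Both arrays numbered replicate 1 carry sample names of another number series, and the Ifng difference was 2.71 within that pair and 3.85 within replicates 2 and 3.

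**Figure D1:**
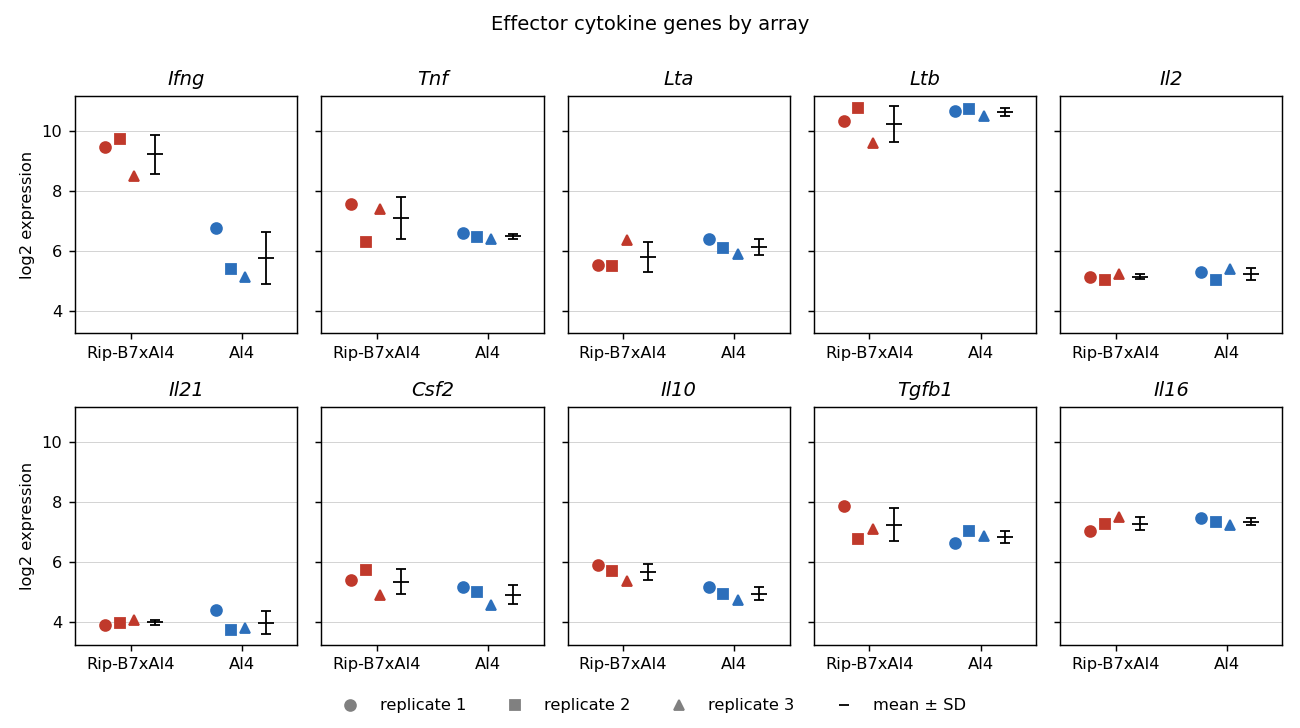
Log2 expression of the 10 cytokine genes on each array (vertical axis), with Rip-B7xAI4 arrays in red and AI4 arrays in blue, replicate numbers as symbols, and the mean ± SD of 3 arrays in black. Ifng lies between 8.49 and 9.73 in Rip-B7xAI4 and between 5.14 and 6.76 in AI4, while the groups overlap for 8 of the other genes.

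Rip-B7xAI4 replicate 2, with a myeloid mean of 5.96, held the highest Ifng value of all, 9.73. Set alone against the 3 AI4 arrays it gave a difference of 3.97, taking its spread to be that of the AI4 group (limma, adjusted p = 0.695 in that fit). Natural killer cells also make interferon gamma, and the mean of 5 markers of theirs was 5.34, 5.31 and 5.56 in Rip-B7xAI4, against 4.79, 4.90 and 4.82 in AI4. Of these 5, Eomes, which CD8 T cells express as well, was the only 1 bright enough to be tested. Ncr1, the defining receptor NKp46, stood at 4.43, 4.42 and 5.86 in Rip-B7xAI4, against 4.61, 4.87 and 4.57 in AI4, and lay below the array median on all 6 arrays. Klrb1c (NK1.1) was 6.18, 5.37 and 5.40 in Rip-B7xAI4, against 4.62, 4.75 and 4.57 in AI4, a difference of 1.00 ± 0.25 (SE, adjusted p = 0.466 in limma with no filter) without overlap. The receptor gene Klri2 also did not overlap, with a difference of 0.21 ± 0.15, and the part of such cells in the Ifng difference was not tested.

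The stretch of 250 bases before the start of a gene holds much of the core promoter, and it is shown here for Ifng and for Tnf and Il2, which receptor signals also switch on but whose differences were smaller. The sequences are those of RefSeq on GRCm38.p6, read 5′ to 3′ in the direction of the gene. Ifng lies on the plus strand and its stretch is chr10:118440796-118441045. Tnf lies on the minus strand with chr17:35202008-35202257, and Il2 on the minus strand with chr3:37125955-37126204. Capitals mark the letters TATAAA of a TATA box and GGAAAA, the form of the NFAT core searched here (TTTTCC on the opposite strand).
Ifng: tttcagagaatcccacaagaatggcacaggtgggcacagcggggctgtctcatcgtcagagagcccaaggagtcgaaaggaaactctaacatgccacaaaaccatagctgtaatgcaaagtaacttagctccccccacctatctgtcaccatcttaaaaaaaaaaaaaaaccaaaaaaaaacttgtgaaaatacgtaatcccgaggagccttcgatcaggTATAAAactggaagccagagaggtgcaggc
Tnf: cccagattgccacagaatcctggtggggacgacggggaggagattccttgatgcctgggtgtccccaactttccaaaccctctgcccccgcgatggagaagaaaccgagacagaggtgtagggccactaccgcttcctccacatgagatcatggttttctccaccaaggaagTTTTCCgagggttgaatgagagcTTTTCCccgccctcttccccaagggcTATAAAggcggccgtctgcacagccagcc
Il2: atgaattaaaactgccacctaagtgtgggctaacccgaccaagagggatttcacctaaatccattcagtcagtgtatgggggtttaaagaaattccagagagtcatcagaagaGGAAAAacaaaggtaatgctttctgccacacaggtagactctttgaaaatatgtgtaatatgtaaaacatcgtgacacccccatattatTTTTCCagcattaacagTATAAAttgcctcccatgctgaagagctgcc

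Each of the 3 stretches holds TATAAA close to the start, beginning 30 bases before it in Ifng, 29 in Tnf and 31 in Il2. Of 32851 stretches in the table, 12.4% hold these letters on either strand. The letters GGAAAA, searched as the NFAT core, occur 2 times in Tnf, 78 and 55 bases before the start. In Il2 they occur 2 times, 137 and 48 bases before it. The Ifng stretch does not hold them, whereas 20.4% of all stretches do. It does hold the shorter GGAAA, followed by a C, which was not searched. Neither strand of the 3 stretches holds TGACTCA of AP-1 (4.46% of all), TGACGTCA of a CRE (1.55%), AGGTGTGA of T-box factors (1.12%) or GGGACTTTC of NF-kappaB (0.289%). The printed matches do not overlap each other. Such matches describe the letters only, and their absence from a short window says nothing of the factor. Of the other members, Il21 holds 2 NFAT core matches, 202 and 118 bases before the start, Ltb 1 NF-kappaB match 86 bases before it and Lta 1 TATAAA 167 bases before it. At 1 of its 3 starts in the table, Il16 holds an AP-1 match 18 bases before it.

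Tnf, Lta and Ltb, close neighbours in the major histocompatibility region of chromosome 17, encode trimeric cytokines of a shared family. Tumour necrosis factor binds Tnfrsf1a and Tnfrsf1b, and many myeloid cells make it too. Its transcript was at 7.57, 6.31 and 7.41 in Rip-B7xAI4, against 6.58, 6.46 and 6.41 in AI4. Replicates 1 and 3 of Rip-B7xAI4 were thus above all AI4 arrays and replicate 2 below them all. The mean difference was 0.61 ± 0.34 (SE), with a 95% interval of -0.20 to 1.43 (limma, adjusted p = 0.583). With Rip-B7xAI4 replicate 2 as the sole array of its group it was -0.17, and without that array 1.01, with an adjusted p of 0.225. It was 0.38 without Rip-B7xAI4 replicate 1. High and low Tnf went with high and low myeloid markers on the Rip-B7xAI4 arrays, and the part of those cells in the Tnf difference was not tested.

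**Figure D2:**
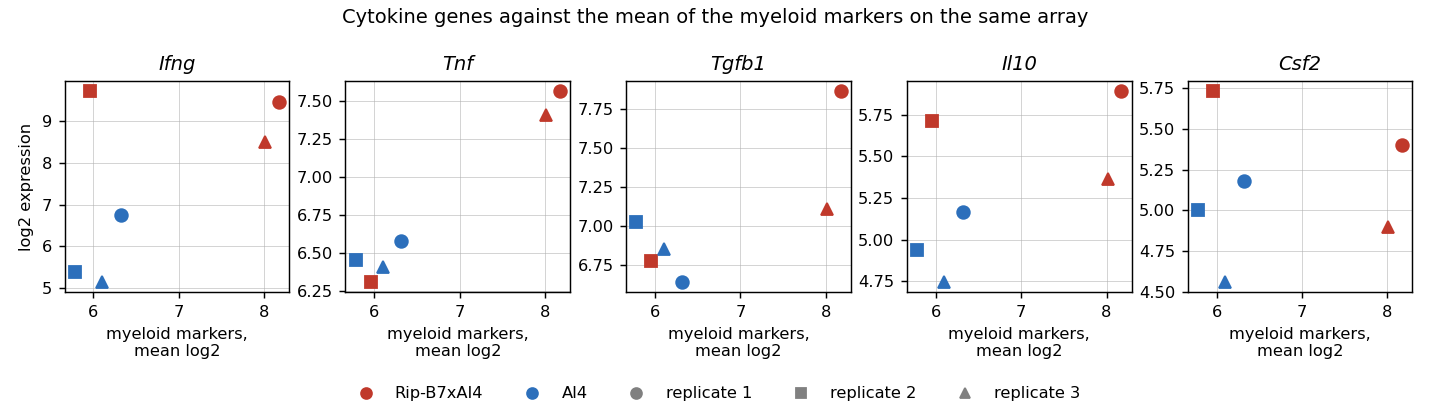
Log2 expression of 5 cytokine genes (vertical axes, each with its own scale) against the mean log2 of 19 myeloid markers on the same array (horizontal axes), for 3 Rip-B7xAI4 arrays in red and 3 AI4 arrays in blue. Tnf reaches 7.57 and 7.41 only where the myeloid mean is 8.17 and 8.01, whereas Ifng is at 9.73 where that mean is 5.96.

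Lta encodes lymphotoxin alpha, a soluble ligand of the tumour necrosis factor receptors that also joins lymphotoxin beta at the cell surface. It was at 5.52, 5.50 and 6.37 in Rip-B7xAI4, against 6.40, 6.10 and 5.88 in AI4. Replicates 1 and 2 of Rip-B7xAI4 lay below all AI4 arrays, while replicate 3 lay within their range. The difference was -0.33 ± 0.29 (SE), with an interval of -1.02 to 0.36 (limma, adjusted p = 0.649). Without Rip-B7xAI4 replicate 3 it was -0.62, with an adjusted p of 0.519. Leaving out Rip-B7xAI4 replicate 1 gave -0.19, leaving out Rip-B7xAI4 replicate 2 gave -0.18 and leaving out AI4 replicate 1 gave -0.20.

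Ltb, which encodes lymphotoxin beta, the ligand of Ltbr in lymphoid tissue, was at 10.33, 10.77 and 9.60 in Rip-B7xAI4, against 10.68, 10.75 and 10.50 in AI4. The highest value and the lowest value of all 6 arrays were both from Rip-B7xAI4. The difference was -0.41 ± 0.31 (SE), with an interval of -1.14 to 0.32 (limma, adjusted p = 0.619). It was -0.09 without Rip-B7xAI4 replicate 3 and -0.68 without Rip-B7xAI4 replicate 2. B cells also make lymphotoxins, and the mean of 7 B cell markers was 6.34, 5.53 and 6.43 in Rip-B7xAI4, against 5.97, 5.69 and 6.09 in AI4. Their part in these values was not tested.

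Il2 and Il21 encode related cytokines that signal through the common gamma chain and lie near each other on chromosome 3. Both were dim, with means among the lowest 30% of genes, so the values below come from the same test run with no filter over 19929 genes. Il2 was at 5.14, 5.04 and 5.21 in Rip-B7xAI4, against 5.28, 5.01 and 5.39 in AI4, a difference of -0.10 ± 0.16 (SE) with an interval of -0.48 to 0.29. This Il2 difference was -0.20 when AI4 replicate 2 was left out, with all Rip-B7xAI4 arrays then lower, and -0.014 when AI4 replicate 3 was. Il21, whose product is best known from helper T cells, was at 3.91, 3.98 and 4.07 in Rip-B7xAI4, against 4.41, 3.75 and 3.78 in AI4. All values of both genes lay below the array medians and the groups overlapped. The Il21 difference was 0.01 ± 0.21 (SE), with an interval of -0.50 to 0.52, and its sign turned with the arrays left out. Cd4, the marker of helper T cells, was bright enough to be tested, at 5.47, 6.10 and 6.24 in Rip-B7xAI4, against 5.89, 5.70 and 5.49 in AI4. It lay above the array median on Rip-B7xAI4 replicates 2 and 3 and below it on the other 4 arrays, a difference of 0.24 ± 0.25 (SE). Of 5 tested CD4 and regulatory T cell markers, 0 were higher and 0 lower at an unadjusted p under 0.05 in limma, against 5.56% and 3.17% of tested genes. Foxp3 was lower without overlap, by -0.13 ± 0.15. Ctla4 (0.67), Zbtb7b (0.01) and Ikzf2 (-0.003) overlapped, and Cd40lg was too dim to test.

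Csf2 encodes the granulocyte-macrophage colony-stimulating factor GM-CSF, a growth and activation factor of myeloid cells. It too was dim, at 5.40, 5.73 and 4.90 in Rip-B7xAI4, against 5.18, 5.001 and 4.56 in AI4. Replicates 1 and 2 of Rip-B7xAI4 lay above all AI4 arrays and replicate 3 within their range. The difference was 0.43 ± 0.27 (SE), with an interval of -0.21 to 1.07 (limma with no filter, adjusted p = 0.622). Leaving out Rip-B7xAI4 replicate 3 gave 0.66, leaving out Rip-B7xAI4 replicate 2 gave 0.24 and leaving out AI4 replicate 3 gave 0.25.

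Among the restraining cytokines, Il10 was the only member besides Ifng whose groups did not overlap. It was at 5.90, 5.71 and 5.36 in Rip-B7xAI4, against 5.17, 4.94 and 4.74 in AI4, and all 6 values lay below the array medians. The lowest Rip-B7xAI4 array was 0.20 above the highest AI4 array. The difference was 0.71 ± 0.20 (SE), with an interval of 0.23 to 1.19 but it did not pass over all genes (limma with no filter, adjusted p = 0.531). It was 0.76 with Rip-B7xAI4 replicate 2 as the sole array of its group, where myeloid markers were low, and lay between 0.59 and 0.85 when single arrays were left out. Of the 10 members, 6 were bright enough for the filtered test, where 1 (Ifng) was higher and 0 lower without overlap, against 5.99% and 11.9% of tested genes. With no filter, 2 were higher without overlap and 0 were lower, against 4.62% and 12% of all genes. At an unadjusted p under 0.05 the counts were 2 higher and 0 lower, against 4.4% and 3.73% of all genes.

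Tgfb1 encodes transforming growth factor beta 1, which is secreted in a latent form. Its transcript was at 7.86, 6.78 and 7.11 in Rip-B7xAI4, against 6.64, 7.03 and 6.86 in AI4. As for Tnf, Rip-B7xAI4 replicates 1 and 3 were above all AI4 arrays and replicate 2 was not. The difference was 0.41 ± 0.30 (SE), with an interval of -0.31 to 1.12 (limma, adjusted p = 0.617). It was 0.10 when Rip-B7xAI4 replicate 1 was left out, 0.65 when replicate 2 was, and -0.06 with replicate 2 as the sole Rip-B7xAI4 array. Within the pair of arrays numbered replicate 1 it was 1.22, and within replicates 2 and 3 it was 0.003. Macrophages make it too, and the part of myeloid cells in its values was not tested.

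Il16 encodes a precursor that is cut to interleukin 16, a ligand of CD4. It was at 7.05, 7.28 and 7.50 in Rip-B7xAI4, against 7.47, 7.32 and 7.24 in AI4. The groups overlapped, with the highest and the lowest value both from Rip-B7xAI4. The difference was -0.06 ± 0.18 (SE), with an interval of -0.50 to 0.38 (limma, adjusted p = 0.885).

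**Figure D3:**
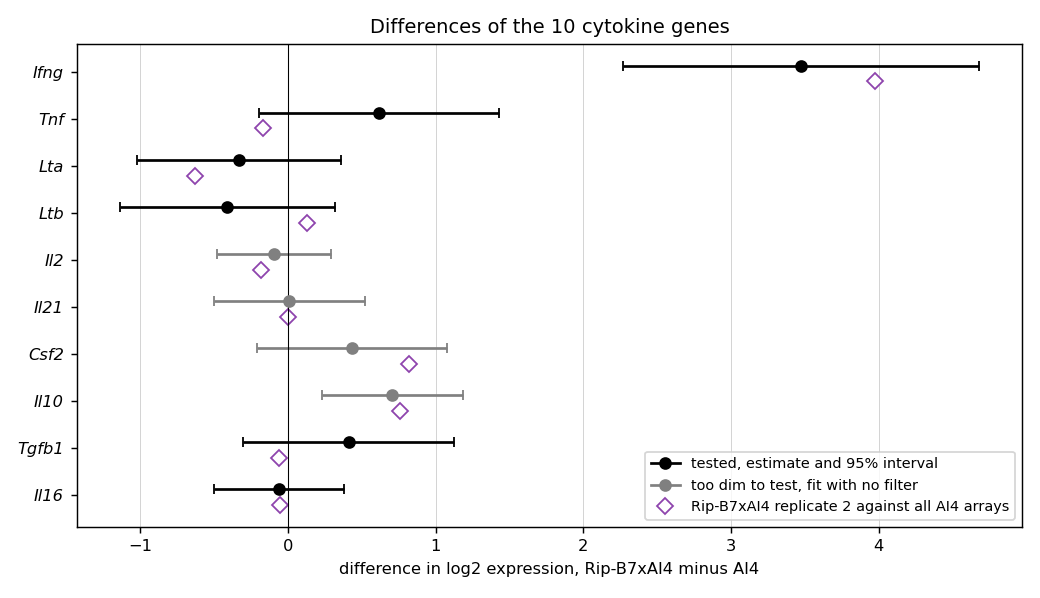
Difference in log2 expression, Rip-B7xAI4 minus AI4 (horizontal axis), for the 10 cytokine genes, with 95% intervals from limma as bars. Grey points are genes too dim to test, fitted with no filter, and diamonds give Rip-B7xAI4 replicate 2 alone against the 3 AI4 arrays. Ifng stands at 3.47 and the other 9 genes between -0.41 and 0.71.

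Whether Ifng differed more than each other member was asked within arrays, by subtracting the log2 value of the other gene from that of Ifng on the same array. This quantity was higher in Rip-B7xAI4 for all 9 pairs, by 2.77 for Il10, 2.86 for Tnf, 3.04 for Csf2, 3.07 for Tgfb1, 3.47 for Il21, 3.54 for Il16, 3.57 for Il2, 3.81 for Lta and 3.89 for Ltb. Groups did not overlap in any pair, and the gap between the lowest Rip-B7xAI4 and the highest AI4 array lay between 0.91 for Tnf and 2.82 for Ltb. The 9 pairs share the Ifng values and are not independent. Each gave p = 0.10 in an exact two-sided permutation test over the arrays, and 0.10 after adjustment over the 9 pairs. That is the smallest p that 3 against 3 arrays allow, so no pair could pass 0.05. 

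**Figure D4:**
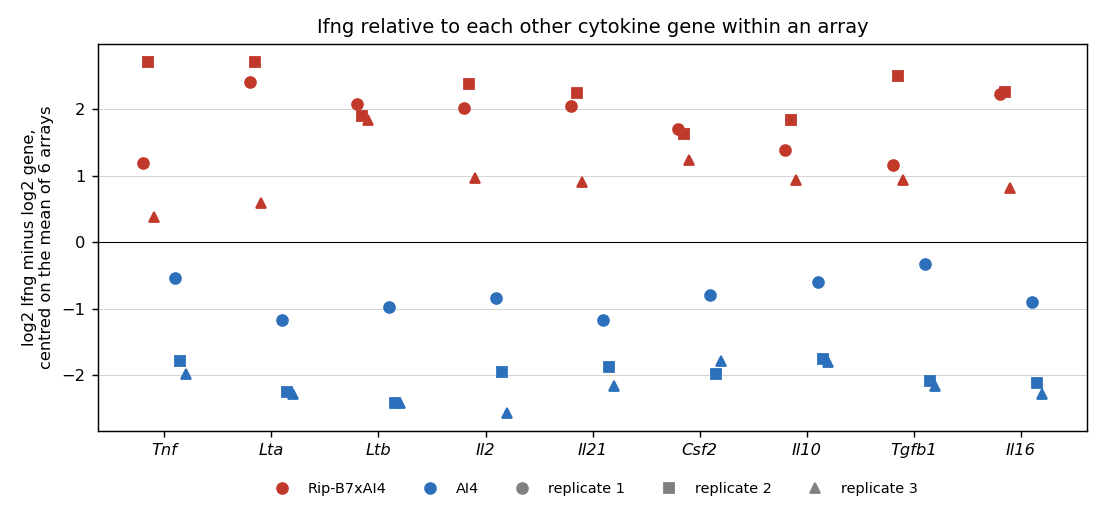
Log2 Ifng minus log2 of each other cytokine gene on the same array, centred on the mean of the 6 arrays for that pair (vertical axis), with Rip-B7xAI4 arrays in red, AI4 arrays in blue and replicate numbers as symbols. In all 9 pairs the 3 Rip-B7xAI4 arrays lie above the 3 AI4 arrays, with the smallest gap, 0.91, for Tnf.

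The genes whose pattern was most like Ifng were found by the root mean square difference of centred log2 values over the 6 arrays. Kif11, a motor of the mitotic spindle, came first with 0.361. Id2, a regulator of effector T cells, followed with 0.398, and the granule protease gene Gzmb with 0.545. Mki67, the Ki-67 proliferation antigen, had 0.588 and Casp1, the inflammatory caspase, 0.644. Among the tested members the nearest was Tnf, with 1.65 and place 1534 in that order. Like Ifng, Gzmb was higher in AI4 replicate 1 than in the other AI4 arrays, at 10.43, 10.76 and 9.83 in Rip-B7xAI4, against 8.13, 5.49 and 5.16 in AI4. Id2 was at 9.96, 9.30 and 9.02 in Rip-B7xAI4, against 7.27, 5.78 and 6.01 in AI4. This order describes likeness over 6 arrays of 2 groups, to which the group difference itself contributes.

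Of the genes that induce interferon gamma, 12 of 16 tested had a positive difference and 4 a negative one, Irf1 with -1.28 among these. Of the 16, 0 passed the adjusted limit in limma, 5 were higher and 0 lower at an unadjusted p under 0.05, and 5 were higher and 0 lower without overlap. Over all tested genes these shares were 5.56% higher and 3.17% lower at that p, and 5.99% higher and 11.9% lower without overlap. The median difference of the list was 0.47, against -0.10 over all tested genes. Bhlhe40, a transcription factor that T cells need for cytokine production, was at 9.36, 8.27 and 7.58 in Rip-B7xAI4, against 5.48, 5.85 and 5.48 in AI4, a difference of 2.80 ± 0.44 (SE, adjusted p = 0.167 in limma). Tbx21, which encodes T-bet, the lineage factor that drives Ifng, was at 7.22, 8.36 and 7.50 in Rip-B7xAI4, against 6.70, 6.79 and 6.67 in AI4. Its difference was 0.97 ± 0.30, with no overlap between the groups. Il18rap and Il18r1, the chains of the interleukin 18 receptor, differed by 1.40 ± 0.43 and 1.36 ± 0.45, again without overlap. Leaving out Rip-B7xAI4 replicate 2 gave 0.64 for Tbx21, and leaving out AI4 replicate 2 gave 0.89 for Il18r1. The count of 5 was 2 without Rip-B7xAI4 replicate 1, 4 without AI4 replicate 1 or 2, and 3 with Rip-B7xAI4 replicate 2 as the sole array of its group. The count of 0 lower was 1 (Irf1) without Rip-B7xAI4 replicate 1, with the replicate block or with the number series as a block.

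Targets of interferon gamma differed less widely than Ifng itself. Of 16 tested targets, 0 passed the adjusted limit in limma. At an unadjusted p under 0.05, 2 were higher and 0 lower, against 5.56% and 3.17% of all tested genes. Without overlap, 3 were higher and 0 lower, against 5.99% and 11.9%. The median difference of the targets was 0.22, with 11 positive and 5 negative, against -0.10 over all tested genes. Psmb9, a subunit of the immunoproteasome, was at 11.16, 11.35 and 11.40 in Rip-B7xAI4, against 10.54, 10.27 and 10.15 in AI4, a difference of 0.98 ± 0.18 (SE, adjusted p = 0.206 in limma). Its partner Psmb8 differed by 0.38 ± 0.17 and the transcription factor gene Irf8 by 1.05 ± 0.36. Both had no overlap, and the Irf8 difference was 0.67 without Rip-B7xAI4 replicate 3. Iigp1, an interferon-induced GTPase, differed by 1.12 ± 0.47, but its values were 7.21, 5.54 and 7.29 in Rip-B7xAI4, against 5.64, 5.71 and 5.35 in AI4. It was high only where the myeloid markers were high, with a difference of -0.03 when replicate 2 was the sole Rip-B7xAI4 array, and their part was not tested. Irf1, an early target singled out after its values were seen, was at 8.59, 6.72 and 6.68 in Rip-B7xAI4, against 10.15, 7.99 and 7.70 in AI4, a difference of -1.28 ± 0.78 with overlap (adjusted p = 0.590). Its highest value in each group was on the array numbered replicate 1. With the number series as a block its SE was 0.20 and its adjusted p 0.190, and with the replicate block 0.23 and 0.355. The Irf1 difference was -0.51 without AI4 replicate 1 and -0.49 as the mean of its 2 probes. The count of 2 was 3 without Rip-B7xAI4 replicate 2 or AI4 replicate 1, and 1 without AI4 replicate 2 or AI4 replicate 3. The count of 0 lower was 1 without Rip-B7xAI4 replicate 1 or with either block.

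Receptors of the members other than Il16 differed in both directions. Il2rg, the common gamma chain, was not among the genes that the arrays name. Of 16 receptor genes tested, 0 passed the adjusted limit in limma. At an unadjusted p under 0.05, 4 were higher and 1 lower, against 5.56% and 3.17% of all tested genes. Without overlap, 3 were higher and 1 lower, against 5.99% and 11.9%. Their median difference was -0.04, against -0.10 over all tested genes. Ifngr2, the signalling chain of the interferon gamma receptor, was at 6.91, 6.18 and 6.83 in Rip-B7xAI4, against 7.16, 8.05 and 8.76 in AI4. The difference was -1.35 ± 0.42 (SE, adjusted p = 0.496 in limma), and all Rip-B7xAI4 arrays lay below all AI4 arrays, whereas for Ifng they lay above. Ifngr1, the ligand-binding chain, singled out after its values were seen, was at 10.16, 10.29 and 9.42 in Rip-B7xAI4, against 9.89, 10.29 and 10.61 in AI4, with overlap. Il2rb, the shared chain of the interleukin 2 and 15 receptors, was at 11.34, 10.90 and 10.20 in Rip-B7xAI4, against 9.36, 10.11 and 9.71 in AI4, a difference of 1.08 ± 0.34. Il10ra, which binds interleukin 10, differed by 0.79 ± 0.28 and Tnfrsf1a by 0.40 ± 0.16, both without overlap. Without AI4 replicate 1 the Il10ra difference was 0.50. The count of 4 was 1 without Rip-B7xAI4 replicate 1 or Rip-B7xAI4 replicate 2, and 2 without any 1 of the other arrays. The count of 1 lower was 0 without Rip-B7xAI4 replicate 2 and 2 without AI4 replicate 1.

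**Figure D5:**
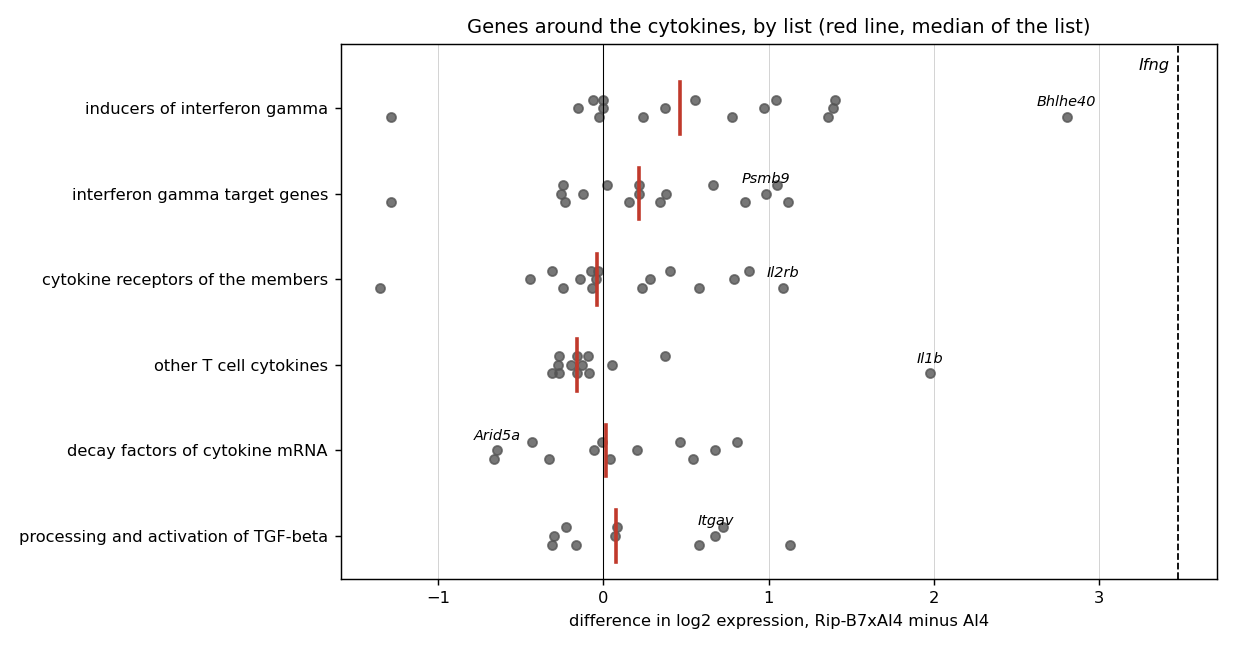
Difference in log2 expression, Rip-B7xAI4 minus AI4 (horizontal axis), of the tested genes in 6 lists around the cytokines, each point a gene, with the median of a list as a red line and the gene of smallest p named. The dashed line marks Ifng at 3.47, above every gene plotted, and Bhlhe40 comes nearest at 2.80.

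Other cytokines, not all of them mainly T cell products, were mostly dim or differed little. Of 21 on the arrays, 13 were bright enough to be tested, and of these 3 had a positive and 10 a negative difference, with a median of -0.16. Over all tested genes 61.0% had a negative difference and the median was -0.10. None of the 13 passed the adjusted limit in limma. At an unadjusted p under 0.05, 1 was higher and 0 were lower, against 5.56% and 3.17% of all tested genes. That 1 was Il1b, a product of myeloid cells above all, at 9.83, 7.11 and 9.25 in Rip-B7xAI4, against 6.22, 6.85 and 7.21 in AI4. The difference was 1.98 ± 0.69 (SE), and 0.36 with Rip-B7xAI4 replicate 2 as the sole array of its group. Its high values were on the Rip-B7xAI4 arrays with high myeloid markers, whose part was not tested. Il17f differed by -0.31 ± 0.17 (SE) and Il12a by -0.28 ± 0.17, both lower without overlap (2 of 13, against 11.9% of all tested genes), and Csf1 by 0.37 ± 0.16, higher without overlap. The count of 1 was 0 without Rip-B7xAI4 replicate 1, Rip-B7xAI4 replicate 3, AI4 replicate 1 or AI4 replicate 2.

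Proteins that bind cytokine transcripts and set their decay had a median difference of 0.02, with 6 of 12 tested genes positive. In limma 0 of 12 passed the adjusted limit, with 1 higher and 1 lower at an unadjusted p under 0.05, against 5.56% and 3.17% of all tested genes. Zfp36, which encodes tristetraprolin, a factor that speeds decay of Tnf and other transcripts, was at 9.24, 8.39 and 9.11 in Rip-B7xAI4, against 7.82, 8.24 and 8.24 in AI4, a difference of 0.81 ± 0.27 (SE). Arid5a, known to stabilise such transcripts, was at 7.02, 7.11 and 7.20 in Rip-B7xAI4, against 7.37, 7.90 and 7.99 in AI4, a difference of -0.64 ± 0.21. Neither overlapped between the groups, and the higher Zfp36 values of Rip-B7xAI4 were again on replicates 1 and 3. With replicate 2 as the sole Rip-B7xAI4 array the Zfp36 difference was 0.28, and the part of myeloid cells was not tested. The count of 1 higher was 0 without Rip-B7xAI4 replicate 1, Rip-B7xAI4 replicate 3 or AI4 replicate 1 and 2 without AI4 replicate 3, and the count of 1 lower was 0 without Rip-B7xAI4 replicate 2, AI4 replicate 2 or AI4 replicate 3.

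Around Tgfb1, 10 genes that process or activate latent transforming growth factor beta were tested, and 0 passed the adjusted limit in limma, with 1 higher and 0 lower at an unadjusted p under 0.05, against 5.56% and 3.17% of all tested genes. That 1 was Itgav, an integrin chain that releases the active form, at 7.88, 7.59 and 7.43 in Rip-B7xAI4, against 6.86, 6.91 and 7.11 in AI4, a difference of 0.68 ± 0.19 (SE, adjusted p = 0.462). Furin, the protease that cuts the precursor, differed by 0.72 ± 0.31 with overlap, and by 0.47 without AI4 replicate 2. The median difference of the list was 0.08. Leaving out Rip-B7xAI4 replicate 2 gave 3 such genes. There were 2 without Rip-B7xAI4 replicate 3 or AI4 replicate 3, and 0 with Rip-B7xAI4 replicate 2 as the sole array of its group.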

How the data were processed

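Sorted CD8 T cells were measured on 6 Affymetrix Mouse Gene 1.0 ST arrays, 3 per group by sample title. Affymetrix Expression Console made the values, per the submitters' processing notes; neither its version nor its algorithm is given in the sources. The deposited table holds 1 value for each probe on each array, and its range was read as log2, since no source used here states the scale. No background measure was used.

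Of 28325 probes, 21760 had 1 symbol in the platform annotation, 1621 several and 4944 none, and 21669 of those with 1 symbol matched RefSeq by gene ID. For each of 19929 genes the probe with the highest mean was kept. The 30% of genes with the lowest mean (limit 5.47 log2) were not tested, which left 13950. Groups were compared with limma 3.58.1 in R 4.3.3 (two-sided, Benjamini-Hochberg over all tested genes, limit 0.05), which was tested on simulated data. In 10 simulated sets with 200 changed genes each, 21.6% of changes of 1 log2 step were recovered, 87.4% of 2, 97.2% of 3 and 98.2% of 4. False calls made 7.03% of all calls, above the limit set. The 4 members below that limit were fitted with no filter. Promoter sequences came from RefSeq on GRCm38.p6, which held 9 of the 10 members. Nothing says whether replicates came from separate mice beyond the word biological, so p-values measure the spread between these arrays.

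Genes named are the 10 members, up to 4 tested genes of each list by smallest p, up to 5 genes most like Ifng and Ccl3. The members and lists were chosen with earlier results of these data known. Alternatives were no filter or a 50% filter, quantile normalization, arrays centred on their medians, the mean of probes, array weights, eBayes with trend and robust, the replicate number or the number series of the sample names as a block, each array left out, and Rip-B7xAI4 replicates 1 and 3 left out together. A pseudocount did not apply to log2 values. Leaving out both arrays of replicate 1, and running these settings with no filter for the 4 dim members, were added after seeing the data.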

Additional observations from a re-analysis of the deposited data

How the results depend on the processing

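The Ifng difference stayed positive in all 17 alternatives, between 3.16 and 3.97, and its adjusted p in limma lay between 0.0393 and 0.695. It passed the limit with array weights alone (3.96, adjusted p = 0.0393). Leaving out single arrays gave 3.16 to 3.97. Il10, Csf2, Il2 and Lta kept the sign of their differences in every alternative that gave them a value.

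With Rip-B7xAI4 replicates 1 and 3 left out together, the differences turned to -0.17 for Tnf, 0.13 for Ltb, -0.06 (-0.063) for Tgfb1, -7e-05 for Il21 and -0.027 for Iigp1. Il16 turned to 0.0038 after median centring, 0.11 without both arrays of replicate 1, 0.050 without Rip-B7xAI4 replicate 1 and 1.05e-05 without AI4 replicate 1. Il21 turned to -0.034 when Rip-B7xAI4 replicate 3 was left out, and to -0.11 and -0.090 when AI4 replicate 2 or 3 was. Hnrnpd turned to -0.027 after quantile normalization. The cause was not tested.

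The count of genes past the adjusted limit, 1 higher and 0 lower, was 35 higher and 3 lower with array weights, 3 higher with the number series as a block, 0 higher with the replicate block, 0 higher without Rip-B7xAI4 replicates 1 and 3 together or without both arrays of replicate 1, and 0 to 22 higher with single arrays left out. At an unadjusted p under 0.05, the 776 higher and 442 lower genes became 487 to 1251 higher and 102 to 1148 lower. The higher share moved by normalization: 620 higher and 527 lower after quantile normalization, 846 higher and 282 lower after median centring.

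Deviations of same-numbered arrays from their group means correlated at -0.082, 0.056 and -0.22. With 3 arrays per group, these correlations cannot settle whether the replicate numbers pair the arrays. The SE of the Ifng difference was 0.51 in the reported fit and 0.36 with the replicate block. With the replicate block Ifng differed by 3.47 with an adjusted p of 0.147, and no member changed its call. Sample names of both arrays numbered replicate 1 come from another number series, and nothing says what it marks. With that series as a block the adjusted p of Ifng was 0.153. The number of arrays and the dimness of Il2, Il10, Il21 and Csf2 limit these values.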
